A study of Mus musculus with 6 samples.

Results

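Serpins are a family of proteins that share a fold and mostly block serine proteases. The members described here are the genes of the count table whose mouse symbol is Serpin followed by a clade letter from a to i, a number and, for a copy, a further letter. There were 63 such genes among the 34866 genes of the table. Of these, 32 had enough counts to be tested. The study measured polyadenylated RNA by sequencing in the livers of male C57BL/6 mice aged 8 weeks. There were 3 libraries from mice given vehicle and 3 from mice given iD1, a drug under a code name that was injected intraperitoneally. No genotype, dose, exposure time or target is given in the labels. The vehicle samples carry the treatment label untreated, whereas the design text and the titles speak of vehicle. The number of a vehicle column matches none of the titles, and that column is called the unnumbered vehicle library below. Nothing in the labels states that each library of a group is a different mouse, so the p-values refer to the spread among these samples, which may be technical.

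Serpins present a flexible stretch near their carboxyl end, the reactive centre loop, as a bait. When a target protease cuts the loop, the loop inserts into the body of the serpin and the protease is trapped and distorted. The letters after the hinge of the loop decide which protease is caught. The liver makes most serpins of the plasma, among them alpha-1-antitrypsin (Serpina1), antichymotrypsin (Serpina3), antithrombin (Serpinc1), alpha-2-antiplasmin (Serpinf2) and C1 inhibitor (Serping1). Some serpins do other work, such as the hormone carriers Serpina6 and Serpina7 and the collagen chaperone Serpinh1. Where humans have a single gene for alpha-1-antitrypsin and another for antichymotrypsin, mice have a row of copies of each.

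The coding stretch over the loop is shown for these copies because the choice of protease lies there. After its hinge they differ more than over the whole coding sequence, and no stretch elsewhere was compared. The stretch holds 72 bases, 24 codons, and was cut from the GENCODE M21 coding sequences (GRCm38) at the hinge. In each of the 12 copies shown it lay within the last coding exon. In the 5 tested Serpina1 copies, capitals mark the 15 bases that are not the same in all of them.

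Serpina1a: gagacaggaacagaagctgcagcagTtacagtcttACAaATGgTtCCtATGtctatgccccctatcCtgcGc
Serpina1b: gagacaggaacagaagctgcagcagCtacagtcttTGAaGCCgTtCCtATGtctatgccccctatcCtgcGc
Serpina1c: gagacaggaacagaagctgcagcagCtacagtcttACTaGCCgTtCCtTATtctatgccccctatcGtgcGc
Serpina1d: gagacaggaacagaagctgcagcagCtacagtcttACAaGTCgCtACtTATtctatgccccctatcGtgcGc
Serpina1e: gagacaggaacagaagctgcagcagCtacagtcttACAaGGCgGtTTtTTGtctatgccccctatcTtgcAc

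Over the whole coding sequence the 10 pairs of Serpina1 copies were between 96.3% and 98.5% identical. After the 11 hinge codons, identity was between 76.9% and 89.7%. The Serpina1 copies are thus near-identical over the coding sequence, and less alike after the hinge of the loop. Where their other differences lie was not compared. In the 7 tested Serpina3 copies, capitals mark the 39 bases after the hinge codons.

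Serpina3c: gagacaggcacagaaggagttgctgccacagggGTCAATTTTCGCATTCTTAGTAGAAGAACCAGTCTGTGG
Serpina3f: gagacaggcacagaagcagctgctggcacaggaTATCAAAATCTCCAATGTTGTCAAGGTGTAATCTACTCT
Serpina3g: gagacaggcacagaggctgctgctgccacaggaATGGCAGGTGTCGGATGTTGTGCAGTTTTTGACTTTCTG
Serpina3i: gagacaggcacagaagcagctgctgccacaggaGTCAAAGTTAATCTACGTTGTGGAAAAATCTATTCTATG
Serpina3k: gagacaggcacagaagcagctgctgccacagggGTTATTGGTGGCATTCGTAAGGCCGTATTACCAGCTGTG
Serpina3m: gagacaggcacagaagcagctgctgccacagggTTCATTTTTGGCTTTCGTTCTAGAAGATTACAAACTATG
Serpina3n: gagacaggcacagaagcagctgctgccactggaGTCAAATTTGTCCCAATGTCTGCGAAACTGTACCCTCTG

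Identity over the coding sequence was between 81.1% and 92.6% in the 21 pairs of Serpina3 copies. After the hinge it was between 20.5% and 59.0%. Gaps in the coding alignments were left out. The coding sequence used for Serpina3g held 744 bases, against 1224 to 1335 in the other copies, so its pairs were compared over a shorter part. The most alike pair over the coding sequence was Serpina3k and Serpina3m, whose hinge codons were identical. The stretch of Serpina3n lay at chr12:104413442-104413513 on the plus strand, that of Serpina3k at chr12:104345263-104345334 on the plus strand, and that of Serpina1e at chr12:103947108-103947179 on the minus strand.

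How far reads can be assigned to a copy was read from the transcripts. Of all stretches of 50 bases in the transcripts of Serpina1c, 25.8% occurred in no other gene's transcripts, and of stretches of 100 bases 41.5%. For the other Serpina1 copies the share at 50 bases ran from 42.4% for Serpina1a to 70.5% for Serpina1b. For the Serpina3 copies it ran from 80.9% for Serpina3m to 95.7% for Serpina3c, and was 93.1% for Serpina3n. Values of single Serpina1 copies are therefore uncertain, and the copies are also given as a sum. Serpina3k and Serpina3m share 60 exon bases on the same strand in this annotation.

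The libraries held between 23515571 and 37613549 estimated counts. TMM scaling factors lay between 1.010 and 1.108 for vehicle and between 0.878 and 1.005 for iD1, without overlap. Mitochondrially encoded genes took 10.6% to 13.6% of counts in vehicle libraries and 8.68% to 10.3% in iD1 libraries, again without overlap, and the total Serpin share below is given with and without them. The summed level of 5 hepatocyte markers was high in each library, between 71080.2 and 94065.0 CPM (counts scaled to the library size after TMM) in vehicle and between 90628 and 99918 CPM in iD1. Markers of T and NK cells and of B cells summed to at most 2.16 CPM in any library. The 8 neutrophil markers summed to between 0.434 and 0.532 CPM in vehicle and between 1.97 and 9.71 CPM in iD1, highest in iD1 replicate 2. Of these markers 3, S100a8, S100a9 and Retnlg, were tested, and they passed the filter through the iD1 libraries, so that their calls as higher were largely set by the filter. Elane had no count in the vehicle libraries, and Ly6g, Camp and Mpo had none in the iD1 libraries.

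Across the whole table, iD1 was compared with vehicle by the quasi-likelihood test of edgeR, with p-values adjusted by Benjamini-Hochberg over the 13718 tested genes and a threshold of 0.05. By this rule 8.42% of the tested genes were higher in iD1, 8.3% were lower and 16.7% were called in either direction. The CPM values of the groups did not overlap for 37.2% of the tested genes. Of the 32 tested Serpin genes, 10 were higher, 1 was lower and 21 were not called. Groups did not overlap for 15 of the 32, 14 of them higher in iD1. The median log2 fold change of the tested Serpin genes was 0.23, against 0.00064 for all tested genes. The genes called higher included Serpina3n, Serpina3c, Serpina3m, Serpina3i, Serpina3g, Serpina3f, Serpina11, Serpinb6b and Serping1, and the gene called lower was Serpinh1. Leaving out a library left between 2 and 10 Serpin genes higher, with 2 without the unnumbered vehicle library, 5 each without vehicle replicate 1, vehicle replicate 2 or iD1 replicate 2, and 4 without iD1 replicate 3. There were 2 genes lower without vehicle replicate 2, when Serpina9 was added. Without TMM factors, on library size alone, the median of all genes moved to -0.20 and the Serpin calls were 5 higher and 2 lower. On that scale 24.1% of the calls over all genes were higher, against 50.4% with TMM factors and 38.4% with upper-quartile factors.

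**Figure D1:**
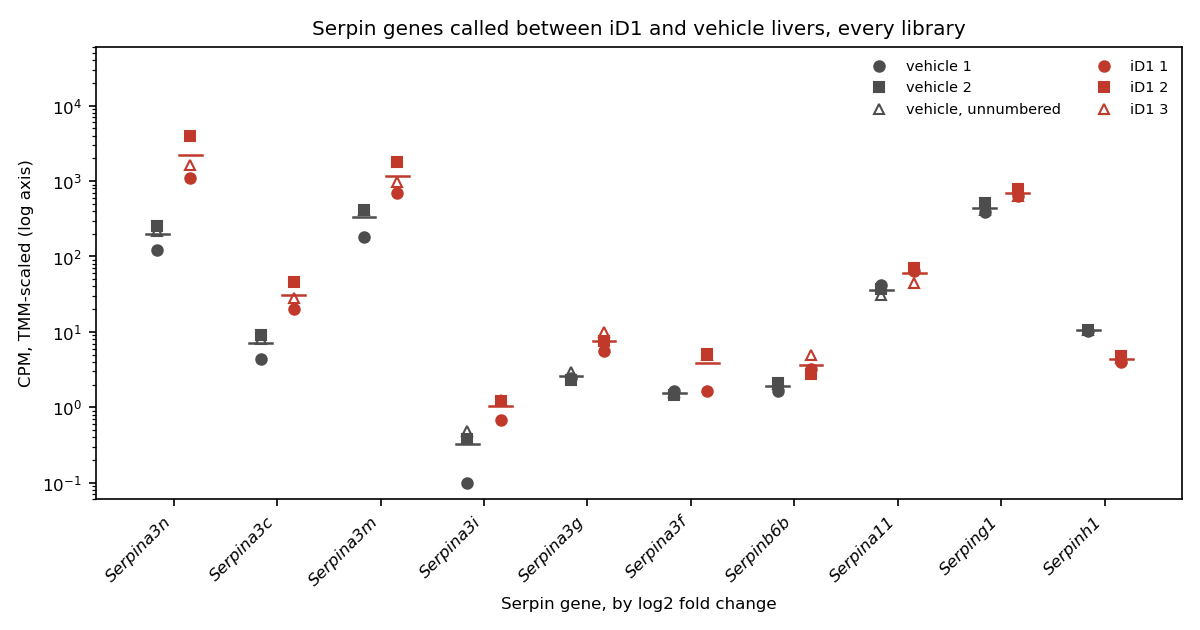
Level of 10 of the 11 called Serpin genes in every library, in CPM scaled by TMM on a log axis. Grey symbols are the 3 vehicle and red symbols the 3 iD1 libraries, and each bar is the mean of a group. Groups do not overlap for any of these genes, although Serpina3f in iD1 replicate 1 lies at 1.65 CPM beside 1.63 in vehicle replicate 1.

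**Figure D2:**
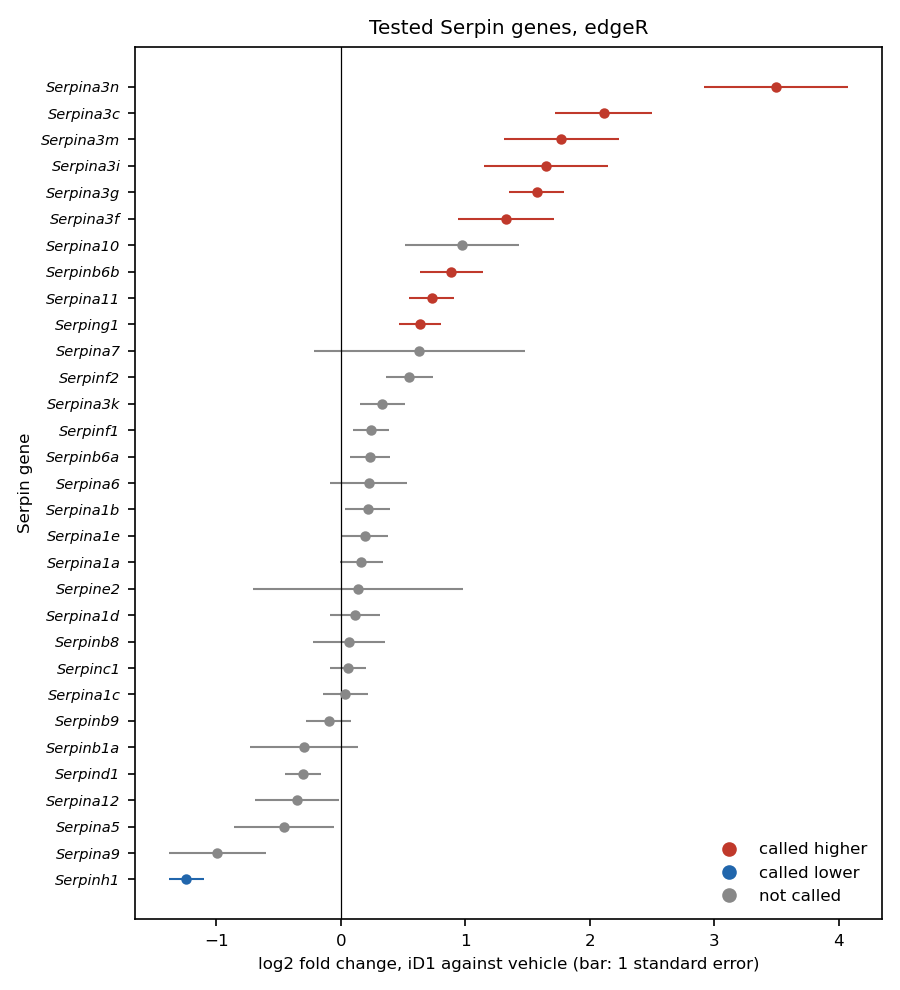
Log2 fold change of iD1 against vehicle for 31 of the 32 tested Serpin genes, each with a bar of 1 standard error, from edgeR. Red marks genes called higher, blue the 1 called lower and grey the 21 not called. Serpina3n lies at 3.50 and Serpinh1 at -1.24.

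The antichymotrypsin-like Serpina3 copies were raised together, apart from the most abundant of them. Of the 7 tested copies 6 were called higher, and the groups did not overlap for any of the 7. The median log2 fold change of the 7 was 1.65. Over all tested genes 8.42% were called higher, and the groups did not overlap for 37.2% in either direction. Of the 6 calls only that of Serpina3g was kept when each library was left out. Serpina3i reached the level of the filter in only 2 of the 3 vehicle libraries. The summed level of neutrophil markers given above was also apart between the groups, and its part in these results was not tested. In whole tissue, a change in the number of cells of a type and a change in the RNA each holds cannot be told apart.

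Serpina3n, a secreted protease inhibitor made in the acute phase response, changed most. It stood at 121, 250.2 and 220.3 CPM in vehicle replicates 1, 2 and the unnumbered library. In iD1 replicates 1, 2 and 3 it stood at 1092, 3960 and 1629 CPM. Every iD1 library was above every vehicle library, and iD1 replicate 2 stood highest. The means were 197 ± 67.6 CPM in vehicle and 2227 ± 1525 CPM in iD1 (SD, n = 3 each), a log2 fold change of 3.50 with a standard error of 0.58 (edgeR adjusted p = 0.0119). The gene lies at chr12:104406729-104414329. Its adjusted p was 0.0517 without the unnumbered vehicle library and 0.0593 with no filter on low counts, and its log2 fold change stayed between 2.78 and 3.83 when each library was left out.

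Serpina3c went from 4.39, 9.11 and 8.15 CPM in vehicle to 20.2, 45.3 and 28.4 CPM in iD1. The order of the libraries was that of Serpina3n, with vehicle replicate 1 lowest and iD1 replicate 2 highest. The log2 fold change was 2.11 with a standard error of 0.39 (edgeR adjusted p = 0.0169). The adjusted p was 0.063 without the unnumbered vehicle library, 0.0552 without iD1 replicate 3 and 0.0785 with no filter.

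Serpina3m stood at 183, 417 and 415 CPM in vehicle and at 694, 1804 and 967 CPM in iD1. It was the copy with the third highest level per length of exon in iD1, after Serpina3k and Serpina3n. Its log2 fold change was 1.77 with a standard error of 0.46 (edgeR adjusted p = 0.0453). The call was lost without each library other than iD1 replicate 1, with adjusted p of 0.0703, 0.0951 and 0.0953 without vehicle replicates 1, 2 and the unnumbered library, and of 0.0862 and 0.103 without iD1 replicates 2 and 3. It was also lost with no filter (0.182) and with limma-voom (0.0577).

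Serpina3g, an intracellular copy known to block cysteine cathepsins, had 2.46, 2.31 and 2.94 CPM in vehicle and 5.64, 7.51 and 9.84 CPM in iD1. Here iD1 replicate 3 and not replicate 2 was highest. Its log2 fold change was 1.57 with a standard error of 0.22 (edgeR adjusted p = 0.00217). This call was kept under all 15 alternatives, the omission of each library included. Serpina3g lies at chr12:104236245-104241939.

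Serpina3f had 1.63, 1.45 and 1.59 CPM in vehicle and 1.65, 5.08 and 4.97 CPM in iD1. The iD1 libraries were split, since replicate 1 was at the level of vehicle. The log2 fold change was 1.33 with a standard error of 0.38 (edgeR adjusted p = 0.0457). The call was lost without each library other than iD1 replicate 1, with adjusted p of 0.118, 0.142 and 0.13 without vehicle replicates 1, 2 and the unnumbered library, and of 0.144 and 0.145 without iD1 replicates 2 and 3. Upper-quartile factors (0.0544), library size alone (0.0645) and limma-voom (0.114) also ended it.

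Serpina3i was near the limit of detection, with 3, 16 and 16 counts in vehicle against 17, 37 and 27 counts in iD1. In CPM these were 0.0998, 0.386 and 0.49 against 0.685, 1.2 and 1.25. The log2 fold change was 1.65 with a standard error of 0.50 (edgeR adjusted p = 0.0493). This gene reached the level of the filter in each iD1 library and in 2 of the 3 vehicle libraries, so its test rests on counts in iD1. The call was lost without each library other than iD1 replicate 1, with adjusted p of 0.0984, 0.106 and 0.0742 without vehicle replicates 1, 2 and the unnumbered library, and of 0.138 and 0.142 without iD1 replicates 2 and 3. It was lost as well with upper-quartile factors (0.0544), library size alone (0.0689) and non-robust shrinkage (0.0553).

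Serpina3k, known as a kallikrein-binding protein, was by far the most abundant copy and was not called. It stood at 10434, 11290 and 12744 CPM in vehicle and at 13882, 16252 and 13272 CPM in iD1. Its groups did not overlap, by a margin smaller than the range within either group. The log2 fold change was 0.33 with a standard error of 0.18 (edgeR adjusted p = 0.242).

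Summed over all Serpina3 copies, the level was 10742, 11972 and 13391 CPM in vehicle and 15702, 22083 and 15908 CPM in iD1. The sum does not depend on how reads were shared out between copies. Its means were 12035 ± 1325 and 17898 ± 3626 CPM (SD, n = 3 each), a log2 fold change of 0.57 with a standard error of 0.21 that did not pass the test (edgeR adjusted p = 0.0883). DESeq2 gave the same sum an adjusted p of 0.00903.

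The make-up of the Serpina3 counts differed between the groups. Serpina3k made up 97.1%, 94.3% and 95.2% of Serpina3 counts in vehicle and 88.4%, 73.6% and 83.4% in iD1. Serpina3n made up 1.13%, 2.09% and 1.64% in vehicle and 6.95%, 17.9% and 10.2% in iD1. Both shares were apart between the groups and farthest from vehicle in iD1 replicate 2. Serpina3m made up 1.70%, 3.48% and 3.10% in vehicle and 4.42%, 8.17% and 6.08% in iD1. An exact permutation test (two-sided) gave p = 0.1 for each of these 3 shares, the smallest it can give with 3 libraries against 3, and 0.2 after adjustment over 14 such quantities. Per 100 Serpina1 counts there were 40.2, 42.3 and 40.7 Serpina3 counts in vehicle and 49.99, 68.4 and 47.0 in iD1, again with an exact permutation p of 0.1. Without iD1 replicate 2 the difference in this ratio was 7.44 in place of 14.1. That library also moved the Serpina3n share, whose difference was 6.98 percentage points without it and 10.1 with it.

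**Figure D3:**
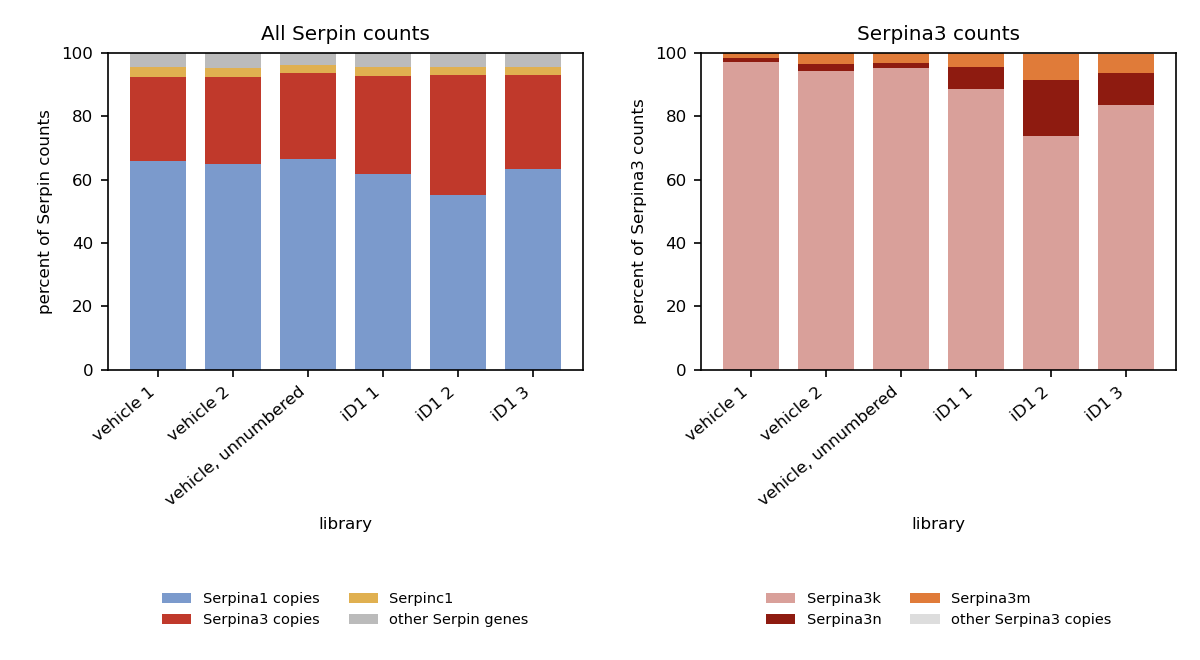
Stacked bars of the percent of all Serpin counts (left) and of Serpina3 counts (right) taken by the named genes, for each of the 6 libraries. In the right panel Serpina3k takes between 94.3% and 97.1% in vehicle and between 73.6% and 88.4% in iD1, and Serpina3n takes the larger part of the rest in iD1.

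The copies of alpha-1-antitrypsin, a protein whose best known target is neutrophil elastase, were not called in either direction. The letters of their loops differ, so the copies need not all share that target. All 5 tested copies had a log2 fold change above 0 but none passed the test, with a median of 0.16. Serpina1e, with the highest level per length of all Serpin genes in vehicle, had 10556, 7982 and 10771 CPM in vehicle and 11610.1, 10838 and 11171 CPM in iD1. Its log2 fold change was 0.20 with a standard error of 0.18 (edgeR adjusted p = 0.506). The groups lay apart by a narrow margin, and vehicle replicate 2 stood low.

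Serpina1c had 5865, 7523 and 7770.3 CPM in vehicle and 6691, 7287 and 7706 CPM in iD1, with groups that overlapped (log2 fold change 0.04 ± 0.18 SE, edgeR adjusted p = 0.919). Serpina1a had 3869, 4417 and 4977 CPM in vehicle and 4725, 4881 and 5259 CPM in iD1 (0.16 ± 0.17 SE, edgeR adjusted p = 0.554). These copies share most of their sequence with each other. Serpina1b had 3842, 4721 and 5379.9 CPM in vehicle and 5114, 5512 and 5596 CPM in iD1 (0.22 ± 0.18 SE, edgeR adjusted p = 0.449). Serpina1d had 2628, 3630.2 and 3994 CPM in vehicle and 3259, 3762 and 4104 CPM in iD1 (0.12 ± 0.20 SE, edgeR adjusted p = 0.732). In each of these 4 copies vehicle replicate 1 was the lowest library. The sum over all Serpina1 copies, Serpina1e included, was 29305 ± 3197 CPM in vehicle and 32508 ± 1222 CPM in iD1 (SD, n = 3 each). Its log2 fold change was 0.15 with a standard error of 0.18 (edgeR adjusted p = 0.623). On library size alone the sum was -0.05, and the signs of Serpina1a, Serpina1c and Serpina1d turned too.

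Within the Serpina1 counts, Serpina1e took 39.4%, 28.2% and 32.7% in vehicle and 37.0%, 33.6% and 33.0% in iD1. This split varied more among vehicle libraries than between the groups, for which an exact permutation test gave p = 0.8. Serpin genes together took 4.77% ± 0.249 of all counts in vehicle and 5.04% ± 0.132 in iD1 (SD, n = 3 each, exact permutation p = 0.2), a difference of 0.274 percentage points. With mitochondrially encoded genes left out of the total the shares were 5.43% ± 0.374 and 5.57% ± 0.107, and the difference was 0.134 percentage points (exact permutation p = 0.8). Serpina1 copies made up 65.7% ± 0.832 of Serpin counts in vehicle and 60.1% ± 4.31 in iD1, and Serpina3 copies 27.0% ± 0.516 and 32.8% ± 4.32. The differences were -5.59 and 5.83 percentage points, and without iD1 replicate 2, at 55.2% and 37.8%, they were -3.14 and 3.36. All Serpin genes other than the Serpina1 and Serpina3 copies took 0.347% ± 0.0248 of all counts in vehicle and 0.357% ± 0.0198 in iD1 (SD, n = 3 each).

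By level per kilobase of exon, in CPM, the order in vehicle was Serpina1e at 6042 ± 960, Serpina3k at 5585 ± 568, Serpina1c at 5182 ± 761, Serpina1d at 2451 ± 508, Serpina1a at 2413 ± 303 and Serpina1b at 1924 ± 320 (SD, n = 3). The first 3 of these and the last 3 lay within each other's spread. Serpina3m followed at 197 ± 78.3 and Serping1 at 190 ± 29.7. In iD1 Serpina3k came first at 7034 ± 765 and Serpina1e second at 6930.3 ± 240, within their spread. Serpina3n moved from rank 14, at 95.5 ± 32.7, to rank 7, at 1079 ± 739.

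The serpins of clotting, fibrinolysis and complement did not move together. Serping1, the C1 inhibitor, which restrains complement and the contact system, had 388, 519.7 and 418 CPM in vehicle and 635, 782 and 642 CPM in iD1. Every iD1 library was above every vehicle library. Its log2 fold change was 0.64 with a standard error of 0.17 (edgeR adjusted p = 0.0307). Omitting vehicle replicate 1 ended the call (adjusted p = 0.0896), as did omitting the unnumbered vehicle library (0.123), iD1 replicate 2 (0.0885) or iD1 replicate 3 (0.0688), and library size alone (0.0986).

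Serpinf2, the plasmin inhibitor alpha-2-antiplasmin, had 274, 317 and 265 CPM in vehicle and 357, 541 and 356 CPM in iD1. The groups did not overlap but the gene did not pass the test, with a log2 fold change of 0.55 and a standard error of 0.19 (edgeR adjusted p = 0.0745). DESeq2 gave it an adjusted p of 0.0247. Serpina10, which with protein Z blocks factor Xa, had 117, 100.2 and 116 CPM in vehicle and 141, 388 and 125 CPM in iD1. The high value belonged to iD1 replicate 2, and the gene was not called (log2 fold change 0.97 ± 0.46 SE, edgeR adjusted p = 0.213).

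Serpinc1, or antithrombin, the main inhibitor of thrombin in plasma, was the steadiest of the abundant members. It had 1368, 1336 and 1333 CPM in vehicle and 1430.5, 1442 and 1326 CPM in iD1 (log2 fold change 0.06 ± 0.14 SE, edgeR adjusted p = 0.827). Of its exon bases, 2942 lie opposite Zbtb37, which was lower in iD1, and the counting is not stated to use strand. Serpind1, the heparin cofactor II that also blocks thrombin, had 323, 382 and 388 CPM in vehicle and 298, 260.3 and 327 CPM in iD1 (-0.30 ± 0.15 SE, edgeR adjusted p = 0.192). It was called lower on library size alone (-0.50, adjusted p = 0.0483).

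The protease nexin Serpine2, which blocks thrombin at cell surfaces, varied within the groups. It had 14.0, 3.42 and 4.93 CPM in vehicle and 16.2, 3.49 and 4.88 CPM in iD1. Replicate 1 was high in each group, and the log2 fold change was 0.14 with a standard error of 0.85 (edgeR adjusted p = 0.935). Without iD1 replicate 1 it was -0.83. Serpina5, the protein C inhibitor, had at most 21 counts in a library and was not called (-0.46 ± 0.40 SE, edgeR adjusted p = 0.477). It reached the level of the filter in each vehicle library and in 1 of the iD1 libraries.

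The hormone carriers were not called. Serpina6, the corticosteroid-binding globulin, had 133, 215 and 210.0 CPM in vehicle and 223, 132 and 296 CPM in iD1 (log2 fold change 0.22 ± 0.31 SE, edgeR adjusted p = 0.671). Serpina7, the thyroxine-binding globulin, had 33.9, 7.09 and 11.2 CPM in vehicle and 41.0, 30.6 and 8.78 CPM in iD1 (0.63 ± 0.84 SE, edgeR adjusted p = 0.668). The libraries of a group thus differed several-fold for Serpina7, more than the groups did.

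Serpinh1, also called HSP47, was the only member called lower. It is no protease inhibitor but a chaperone that binds newly made collagen in the endoplasmic reticulum, and it lies at chr7:99345376-99353239. It had 10.4, 10.5 and 10.5 CPM in vehicle and 3.95, 4.79 and 4.55 CPM in iD1. The vehicle libraries were almost equal and far above each iD1 library. Means were 10.5 ± 0.0847 CPM and 4.43 ± 0.432 CPM (SD, n = 3 each), a log2 fold change of -1.24 with a standard error of 0.14 (edgeR adjusted p = 0.000774). The call was kept under all 15 alternatives, with a log2 fold change between -1.31 and -1.16 when each library was left out. Of 17 tested collagens and collagen-modifying enzymes, only the prolyl hydroxylase subunit P4ha1 was called lower (-0.77 ± 0.17 SE, edgeR adjusted p = 0.0161). None of the 17 was called higher, and their median was -0.23. Over all tested genes 8.3% were called lower and 8.42% higher, so these counts are not above that share. Col1a1, Col1a2 and Col3a1 had log2 fold changes of -0.26, 0.01 and -1.09 and were not called. Stellate and fibroblast markers, of cells known to make collagen, summed to between 166 and 238 CPM in vehicle and between 158 and 212 CPM in iD1, a sum made up mostly of Dcn (128 ± 26.3 and 123 ± 17.4 CPM, SD, n = 3 each). All 8 of these markers had a log2 fold change below 0, with a median of -0.60. For 3 of them the iD1 libraries lay below each vehicle library, as they did for 2565 of all 13718 tested genes. The retinoid enzyme Lrat was called lower (-1.77 ± 0.25 SE, edgeR adjusted p = 0.00289) and none of the 8 higher. Of 6 sinusoidal endothelial markers, 4 lay below each vehicle library in iD1 and 1 above, with a median of -0.48. Kupffer and macrophage markers had a median of -0.28. The part of any of these cell types in the Serpinh1 result was not tested.

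Serpina11, a secreted member of clade A, had 41.3, 36.9 and 30.6 CPM in vehicle and 64.3, 71.1 and 45.1 CPM in iD1. The groups did not overlap, and the log2 fold change was 0.73 with a standard error of 0.18 (edgeR adjusted p = 0.0254). Omitting vehicle replicate 2 ended the call (adjusted p = 0.0766), as did omitting the unnumbered vehicle library (0.1), iD1 replicate 1 (0.0553) or iD1 replicate 2 (0.0777), and library size alone (0.105). Of its 1638 exon bases, 669 are shared on the same strand with the untested processed transcript Gm28577, so its value may hold reads of that gene.

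Serpina12, the adipokine vaspin, had 48.3, 21.1 and 33.2 CPM in vehicle and 34.1, 27.1 and 18.9 CPM in iD1 (log2 fold change -0.35 ± 0.34 SE, edgeR adjusted p = 0.53). Serpina9, known from germinal centre B cells, had 2.66, 1.04 and 2.21 CPM in vehicle and 1.01, 0.712 and 1.25 CPM in iD1 (-0.99 ± 0.39 SE, edgeR adjusted p = 0.113). It was called lower without vehicle replicate 2 (-1.31, adjusted p = 0.0406). Serpinf1, the growth factor PEDF, which does not block proteases, had 386, 397 and 346 CPM in vehicle and 463, 391.9 and 481 CPM in iD1 (0.24 ± 0.14 SE, edgeR adjusted p = 0.284).

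Members of clade B mostly stay inside the cell and guard it against its own or incoming proteases. Of 27 such genes 5 were tested, 1 was called higher and 12 had no count in any library. Over all tested genes 8.42% were called higher, and 1 of 5 is too few to set the clade apart. Serpinb6b was the one called, with 1.66, 2.12 and 2.02 CPM in vehicle and 3.22, 2.75 and 4.88 CPM in iD1. Groups did not overlap, and iD1 replicate 3 was highest. The log2 fold change was 0.89 with a standard error of 0.25 (edgeR adjusted p = 0.0411). The call was lost without vehicle replicates 1 and 2 (adjusted p = 0.114 and 0.0835), the unnumbered vehicle library (0.105) and iD1 replicate 3 (0.153), and with upper-quartile factors (0.0544), library size alone (0.105) and limma-voom (0.0542).

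The related Serpinb6a, which blocks cathepsin G, had 7.05, 8.1 and 9.19 CPM in vehicle and 7.9, 10.4 and 10.4 CPM in iD1 and was not called (0.23 ± 0.16 SE, edgeR adjusted p = 0.36). Part of its exons lie opposite Nqo2, which was lower in iD1. Serpinb9, the inhibitor of granzyme B, had between 3.61 and 5.16 CPM over all libraries (-0.10 ± 0.18 SE, edgeR adjusted p = 0.757). Serpinb8, which blocks furin, had between 0.858 and 1.23 CPM (0.06 ± 0.29 SE, edgeR adjusted p = 0.908). Serpinb1a, an inhibitor of neutrophil elastase, had 1.1, 0.988 and 0.796 CPM in vehicle and 0.524, 0.485 and 1.39 CPM in iD1 (-0.29 ± 0.43 SE, edgeR adjusted p = 0.686). Its groups overlapped because iD1 replicate 3 was the highest of all libraries.

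Of the 31 members that were not tested, 14 had no count in any library and another 14 had at most 10 counts in each. The other 3 were Serpina3h, Serpina3j and the neuroserpin gene Serpini1. Serpina3h had 6, 2 and 4 counts in vehicle and 4, 22 and 10 counts in iD1. Serpina3j had between 2 and 12 counts, and Serpini1 between 6 and 11. Of the 32 tested members 30 reached the level of the filter in each vehicle library.

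On chromosome 12 the 24 clade A members other than Serpina7 form a cluster of 799.5 kb, chr12:103614786-104414329, of which 18 were tested. All Serpina3 copies lie together at the end with the highest coordinates, and 6 of the 7 called genes of the cluster were among them. The seventh, Serpina11, lies between the Serpina1 copies and Serpina9. Tested neighbours at the other end, from Serpina10 to Serpina1e, were not called.

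**Figure D4:**
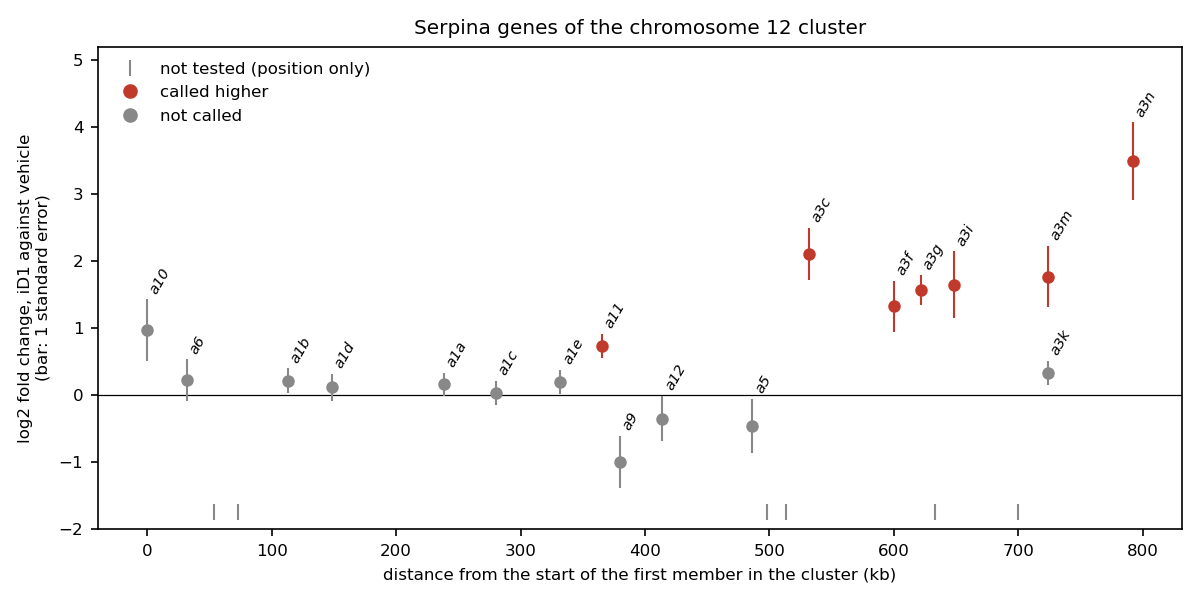
Log2 fold change of iD1 against vehicle along the Serpina cluster of chromosome 12, by distance in kb from the start of its first member, with bars of 1 standard error. Red marks called genes, grey dots uncalled genes and grey ticks the position of untested genes. The called Serpina3 copies fill the right end, where the uncalled Serpina3k lies at 0.33 beside Serpina3m at 1.77.

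Promoters of 24 of the tested members were listed by RefSeq (GRCm38.p6), from 250 bases before the gene start to 50 after it, and 8 of these belonged to called genes. The 250 bases before the start are shown for 3 Serpina3 copies because these genes rose together. No promoter was listed for the uncalled Serpina3k or the called Serpina3m. Every Serpina3 promoter read was thus of a called gene, and no uncalled copy could be compared. Capitals mark 9 bases at a position they have in common, ahead of the letters atca, read against the STAT letters TTCNNNGAA. STAT factors carry cytokine signals of the acute phase response.

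Serpina3n: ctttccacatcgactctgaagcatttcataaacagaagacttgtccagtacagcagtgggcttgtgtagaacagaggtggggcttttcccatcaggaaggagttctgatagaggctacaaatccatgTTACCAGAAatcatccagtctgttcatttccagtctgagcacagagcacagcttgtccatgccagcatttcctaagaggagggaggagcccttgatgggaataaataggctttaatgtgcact
Serpina3g: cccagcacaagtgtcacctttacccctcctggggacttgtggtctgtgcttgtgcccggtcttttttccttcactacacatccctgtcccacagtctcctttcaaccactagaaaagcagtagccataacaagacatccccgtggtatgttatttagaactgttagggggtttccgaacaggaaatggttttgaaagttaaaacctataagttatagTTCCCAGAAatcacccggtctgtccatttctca
Serpina3i: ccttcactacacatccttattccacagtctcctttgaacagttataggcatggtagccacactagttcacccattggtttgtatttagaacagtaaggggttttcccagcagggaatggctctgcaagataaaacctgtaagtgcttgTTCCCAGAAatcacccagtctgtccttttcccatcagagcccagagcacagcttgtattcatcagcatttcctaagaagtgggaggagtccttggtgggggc

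The Serpina3n stretch is chr12:104406458-104406707, that of Serpina3g chr12:104235897-104236146 and that of Serpina3i chr12:104262872-104263121, all on the plus strand. In Serpina3g, Serpina3i and Serpina3f the 9 bases matched the STAT letters. In Serpina3n and Serpina3c they differed from them by the substitution C3A, with positions counted from the first T of the letters. The position was found by searching for the letters AGAAATCA, so the AGAA at the end of the 9 bases was set by the search. How often other promoters come as near to the STAT letters was not counted, so the near match cannot be weighed. The 9 bases began 33 bases before the start in Serpina3g, 102 in Serpina3i and 123 in Serpina3n. The STAT letters, searched on both strands like the others, were found in the promoters of 5 of the 24 tested members. Of the 8 called genes 4 held them: Serpina11, Serpina3f, Serpina3g and Serpina3i. The Serpina3 matches lie at the shared position of related copies and do not count as separate finds. Of all 32851 listed promoters of this length, 8.30% held the STAT letters. That percent counts promoters and not genes, and Serpina11 and Serpina3f have more than 1 promoter each. The NF-kB letters GGGANNNCC were in the promoters of 2 called genes, Serpina3f and Serpina3i, and in 18.6% of all promoters. The C/EBP letters TTGCNNAA were in that of 1 called gene, Serpina3f, and in 10.8% of all. Those of AP-1 (TGANTCA, 7.81% of all promoters), CRE (TGACGTCA, 1.79%) and the E-box (CACGTG, 7.15%) were in none of the 8. Over all 24 tested members, called or not, the C/EBP letters were in the promoters of 9, those of AP-1 of 5 and those of NF-kB of 2. Those of CRE and the E-box were in none of the 24. None of these matches in called genes overlapped another. Such matches describe letters and not binding.

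Genes that work with serpins were read from lists, each beside the 16.7% of all genes called. Among proteases that serpins block or act beside, 5 of 25 tested genes were higher and 1 was lower, with a median log2 fold change of 0.18. Those higher included the lysosomal cathepsin Ctsl (log2 fold change 1.42 ± 0.22 SE, edgeR adjusted p = 0.00343), the proprotein convertase Furin (0.61 ± 0.14 SE, 0.0177) and plasminogen, Plg (0.63 ± 0.18 SE, 0.0395).

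Among other protease inhibitors, 4 of 23 tested were higher and 2 lower, with a median of 0.27. The fetuin Fetub (0.76 ± 0.14 SE, edgeR adjusted p = 0.00662), the inter-alpha-inhibitor heavy chain Itih3 (1.13 ± 0.22 SE, 0.00929) and the kininogen Kng2 (0.61 ± 0.18 SE, 0.0424) were higher. The membrane-bound metalloprotease inhibitor Reck was lower (-0.91 ± 0.26 SE, 0.0384).

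Among receptors and cofactors, 6 of 16 tested were higher and 1 lower, with a median of 0.05. Thrombomodulin, Thbd, which turns thrombin towards protein C, rose from 1.99 ± 0.319 to 21.6 ± 7.97 CPM (SD, n = 3 each, 3.43 ± 0.30 SE, edgeR adjusted p = 0.000552). The heparan sulfate proteoglycan Sdc4 (1.46 ± 0.18 SE, 0.00102) and protein S, Pros1 (0.98 ± 0.17 SE, 0.00525), were higher. None of 17 tested genes for the folding and disposal of secreted proteins was called, and their median was -0.18.

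Regulators of the acute phase and hormone response held the most calls of these lists, 10 of 26 tested higher and 3 lower, with a median of 0.61. The lists were chosen with earlier results of these data known, so their order by calls is no independent result. The interleukin 1 receptor Il1r1 rose from 24.5 ± 4.96 to 216 ± 30.7 CPM (SD, n = 3 each, 3.14 ± 0.19 SE, edgeR adjusted p = 5.8e-05). The cytokine-responsive factor Stat3 (1.78 ± 0.15 SE, 0.000283), the hormone-responsive factor Klf9 (1.41 ± 0.16 SE, 0.000871) and the acute phase factor Cebpb (1.74 ± 0.20 SE, 0.000977) were higher too. The values of these genes describe the same libraries as those of the Serpin genes, and no link between them was tested.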

How the data were processed

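The values deposited by the authors are estimated counts, unscaled, for versioned Ensembl gene identifiers; in a library 22.6% to 27.7% of them are not whole. The aligner, the quantifier, the build and the strand setting were not given in the sources used here. Per the labels' protocols, RNA was prepared with a stranded mRNA kit. Estimated counts can share out reads between near-identical copies.

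Symbols were found for 34582 of the 34866 identifiers. Of the 63 members, 62 had the same version in GENCODE M21 (GRCm38), which gave positions, exon lengths and transcripts. No protein table or genome sequence was used. Columns were assigned by name, and no pair of libraries of a group agreed within sampling noise.

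Counts were rounded. Genes were kept by filterByExpr (minimum count 10, minimum total 15), scaled by TMM and tested with edgeR 4.0.16 in R 4.3.3 (robust quasi-likelihood F test, two-sided, Benjamini-Hochberg over 13718 genes). The standard error is the size of the log2 fold change over the square root of F, and the SD is over 3 libraries. Copies were summed in the table and refitted. With 3 libraries against 3, an exact permutation test cannot go under 0.1. The fit was tested on simulated data. Coding sequences were aligned with Biopython 1.88, and the hinge was found by residue classes in 24 of the 32 tested members.

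Alternatives were DESeq2 size factors, upper-quartile factors, library size alone, no filter, 1 CPM in 3 libraries, DESeq2 1.42.0, limma-voom (limma 3.58.1), non-robust shrinkage, a replicate block and the omission of each library. For the shares, leaving out libraries was chosen after seeing the data. The members and gene lists were chosen with earlier results of these data known. A few genes that the rule for named genes takes are left out of the text. Otherwise every tested member is named; called members and the 8 with the highest level per length get full values, untested members with over 10 counts in a library are named, and of each list up to 4 called genes by smallest p.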

Additional observations from a re-analysis of the deposited data

How the results depend on the processing

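Among the 11 called Serpin genes, Serpina3g and Serpinh1 kept their call under each of the 15 alternatives, and no called member changed direction under any of them. Leaving out a library gave between 2 and 10 members higher, 1 or 2 lower and between 1212 and 2574 genes called over the table. The lowest count, 2, came without the unnumbered vehicle library, and it was 5 without vehicle replicate 1, 5 without vehicle replicate 2, 5 without iD1 replicate 2 and 4 without iD1 replicate 3. On library size alone there were 5 members higher and 2 lower, the Serpina1 sum was -0.050, and Serpinc1 (-0.15), Serpina1d (-0.083), Serpina1a (-0.035), Serpinb8 (-0.15), Serpine2 (-0.030) and Serpina1c (-0.17) changed sign. Upper-quartile factors changed the sign of Serpinc1 (-0.019), Serpinb8 (-0.013) and Serpina1c (-0.038). None of these genes was called either way. DESeq2 called the Serpina3 sum (0.58, adjusted p = 0.00903) and 11 members higher. Leaving out libraries changed the sign of uncalled members, with ranges from -0.040 to 0.24 for Serpina1d, -0.24 to 0.0033 for Serpinb9, -0.081 to 0.11 for Serpina1c, -0.83 to 0.97 for Serpine2, -0.046 to 0.22 for Serpinb8 and -0.065 to 0.47 for Serpina6. The cause was not tested.

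Replicate numbers 1 and 2 are shared by the groups. The deviations of same-numbered libraries correlated at 0.17 for number 1 and -0.13 for number 2. With 3 libraries in a group, these values cannot decide whether same-numbered libraries were paired. With the replicate block 827 genes were called, 6 members were higher and Serpinb8 was -0.070. The calls of Serpina3f (adjusted p = 0.291), Serpina3i (0.0706), Serpinb6b (0.3) and Serping1 (0.125) were lost with the block. The block leaves few residual degrees of freedom. Depth limits genes with few counts, such as Serpina3i.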

Other observations

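The pseudogene Serpina4-ps1, at chr12:104080649-104086724 between Serpina12 and Serpina5, falls outside the naming rule because of its suffix. It was one of the more abundant Serpin transcripts outside the Serpina1 and Serpina3 copies. It stood at 294, 251 and 149 CPM in vehicle and at 380.3, 87.6 and 49.7 CPM in iD1, with groups that overlapped. Its log2 fold change was -0.42 with a standard error of 0.86 (edgeR adjusted p = 0.785). It was chosen for mention after its values were seen. The other 4 Serpin pseudogenes outside the rule, Serpina3d-ps, Serpina3e-ps, Serpina3l-ps and Serpinb1-ps1, had at most 13 counts in a library.

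Of the 10 members called higher, 6 had their highest CPM in iD1 replicate 2 and 3 in iD1 replicate 3. The lowest CPM of 7 of the 10 was in vehicle replicate 1.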
